A study of Homo sapiens with 18 samples.

Results

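PCK1, PCK2, G6PC1, FBP1, PC, SLC37A4 and PPARGC1A are 7 genes of hepatic gluconeogenesis: 5 enzymes, 1 transporter and 1 transcriptional coactivator. They were chosen by symbol, and each was read from the feature annotated to that gene alone. Each had exactly 1 such feature, so the members were 7 of the 32321 features of the array, of which 20546 carried a gene symbol and were tested. The cells were HepG2, an established human hepatocellular carcinoma line, stably transfected with a plasmid for the thyroid hormone receptor isoform TRα1 (6 positive clones pooled), with a plasmid for TRβ1 (12 clones pooled) or with the empty plasmid as control (11 clones pooled), all under G418 co-selection. Over 6 h, cultures of each pool in 10% serum stripped of hormones received either T3 (triiodothyronine, the receptor-binding thyroid hormone) at 100 nM or only its ethanol vehicle. The 6 groups were therefore TRα1 on T3, TRα1 on vehicle, TRβ1 on T3, TRβ1 on vehicle, control on T3 and control on vehicle, with 3 arrays each, which the submitters describe as independent biological repeats. All 3 pools carried the receptor genes native to HepG2, and since each construct was studied in a single pool of clones, an effect of the receptor and an effect of the clones chosen cannot be told apart.

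Gluconeogenesis makes glucose from lactate, glycerol and amino acids, and in the fasted liver it keeps blood glucose up. Pyruvate carboxylase (PC) turns pyruvate into oxaloacetate in mitochondria, PCK1 in the cytosol and PCK2 in mitochondria turn oxaloacetate into phosphoenolpyruvate, FBP1 removes a phosphate from fructose bisphosphate, and G6PC1 releases free glucose from glucose 6-phosphate that SLC37A4 carries into the endoplasmic reticulum. Transcription of PCK1 and G6PC1 is raised by glucagon through cAMP and lowered by insulin, PPARGC1A (PGC-1α) is a coactivator of that fasting response, and thyroid hormone is known to raise hepatic gluconeogenesis.

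Values are log2 expression after RMA, the authors' normalization, so a difference of 1 is a 2-fold change, and levels of different genes cannot be set against each other. Array medians lay between 5.31 and 5.49. The largest difference among arrays followed the replicate number: the component with 49.2% of the variance put the 6 arrays numbered 1 between -39.2 and -32.3 and the other 12 between 11.99 and 22.6. THRA, the gene for TRα, stood at 7.96 ± 0.26 and 7.50 ± 0.10 (SD, n = 3) in the TRα1 pool on T3 and vehicle, against 7.01 ± 0.21 and 7.06 ± 0.12 in the control pool. THRB, the gene for TRβ, stood at 7.42 ± 0.05 and 6.95 ± 0.07 in the TRβ1 pool, against 7.07 ± 0.16 and 6.65 ± 0.24 in the control pool. In the TRα1 pool THRB stood at 7.19 ± 0.29 and 6.74 ± 0.14, and its T3 arrays (6.93 to 7.50) overlapped those of TRβ1 (7.39 to 7.48). On vehicle the THRB arrays of TRβ1 and control overlapped, and the mean of THRB was higher on T3 in every pool. All 10 measured hepatocyte markers were above the median feature, against 2 of 5 leukocyte, 2 of 6 fibroblast, 2 of 5 intestinal, 0 of 5 endothelial and 0 of 4 renal tubule markers. Of the leukocyte list LYZ (11.38 to 12.12) and CD68 (8.27 to 8.76) were above it, and PTPRC, the defining marker of leukocytes, lay between 2.27 and 2.86. The summed levels of each of the 6 marker lists overlapped between T3 and vehicle in every pool.

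PCK1 and G6PC1 were higher on T3 in the pools with added receptor, and the other 5 genes moved little. Averaged over the 3 pools, PCK1 rose by 0.91 ± 0.16 (SE, 1.88-fold) and G6PC1 by 0.87 ± 0.17 (1.83-fold). PCK1 had its largest response in the TRβ1 pool (3.09-fold) and G6PC1 in the TRα1 pool (2.56-fold), and neither passed the test in the control pool. For neither gene did a difference of response between pools pass on all 18 arrays, with or without the replicate number in the model. PCK1 passed in the TRβ1 pool in both of these models, and in the TRα1 pool only with that number. On all 18 arrays, each receptor pool taken singly passed for G6PC1 with the replicate number in the model, and no pool did without it.

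PCK1 (feature 8063590; RefSeq places the gene at chr20:57561110-57568121 in GRCh38.p14) encodes the cytosolic enzyme that commits oxaloacetate to glucose. In the TRβ1 pool it stood at 7.37, 7.47 and 6.23 on T3 (replicates 1, 2 and 3), against 5.29, 5.65 and 5.26 on vehicle. Every T3 array lay above every vehicle array, and replicate 3 was the lowest on T3 by more than 1 log2 unit. In the TRα1 pool PCK1 stood at 6.31, 6.71 and 6.08 on T3, against 5.33, 5.45 and 5.27 on vehicle. Again the groups did not overlap, as in 2.64% of features for a higher level on T3 in this pool and 2.4% in the TRβ1 pool, and the T3 arrays lay closer together than in the TRβ1 pool. In the control pool the values were 5.41, 5.78 and 5.12 on T3, against 5.03, 5.72 and 5.33 on vehicle, which overlapped (2.18% of features were higher on T3 in this pool without overlap).

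The response of PCK1 was 1.63 ± 0.28 (SE; 95% interval 1.03 to 2.22) in the TRβ1 pool, with an adjusted p of 0.0418 in limma over all 20546 features. It was 1.02 ± 0.28 (2.03-fold; interval 0.43 to 1.62) in the TRα1 pool, which did not pass (adjusted p = 0.494), and 0.08 ± 0.28 (interval -0.51 to 0.68) in the control pool (adjusted p = 1.0). In the mean of the pools PCK1 passed with an adjusted p of 0.0134. The call in TRβ1 held in 4 of 18 fits that left out 1 array (adjusted p between 0.0013 and 0.266). Arrays with the same replicate number varied together, and with that number as a block PCK1 passed in both receptor pools, with adjusted p of 3.9e-04 in TRβ1 and 0.0139 in TRα1. Within same-numbered pairs T3 exceeded vehicle by 2.09, 1.82 and 0.97 in the TRβ1 pool and by 0.99, 1.26 and 0.82 in the TRα1 pool, while the control pool gave 0.39, 0.06 and -0.21. In RNA from whole cultures, more PCK1 RNA per cell and more cells that make it cannot be told apart.

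Ordered by group mean, PCK1 was highest in TRβ1 on T3 (7.02 ± 0.69, SD, n = 3), then TRα1 on T3 (6.37 ± 0.32), control on T3 (5.44 ± 0.33), TRβ1 on vehicle (5.4 ± 0.22), control on vehicle (5.36 ± 0.35) and TRα1 on vehicle (5.35 ± 0.09). Of these neighbours, TRα1 on T3 and control on T3 were the only ones whose arrays did not overlap, with a gap of 0.93 between their means. The share of features that did not overlap between these groups was not counted. The 4 lower groups lay within 0.10 of each other.

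PCK2 (feature 7973530, chr14:24094171-24104125), the mitochondrial isozyme of the same reaction, did not pass in any hormone comparison. It stood at 8.54, 8.73 and 8.35 on T3 against 8.42, 8.72 and 8.15 on vehicle in the TRβ1 pool, and at 8.21, 8.24 and 8.09 on T3 against 7.97, 8.24 and 7.80 on vehicle in the TRα1 pool. The control pool had 8.61, 8.41 and 8.32 on T3 against 8.41, 8.25 and 8.27 on vehicle. The groups overlapped in every pool, although T3 was the higher array in 8 of 9 same-numbered pairs. The share of features higher in 8 of 9 was not counted, and 2.04% were higher in all 9. The mean response was 0.14 ± 0.09 (interval -0.04 to 0.33), so the interval of PCK2 ended below that of PCK1, which began at 0.57.

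**Figure D1:**
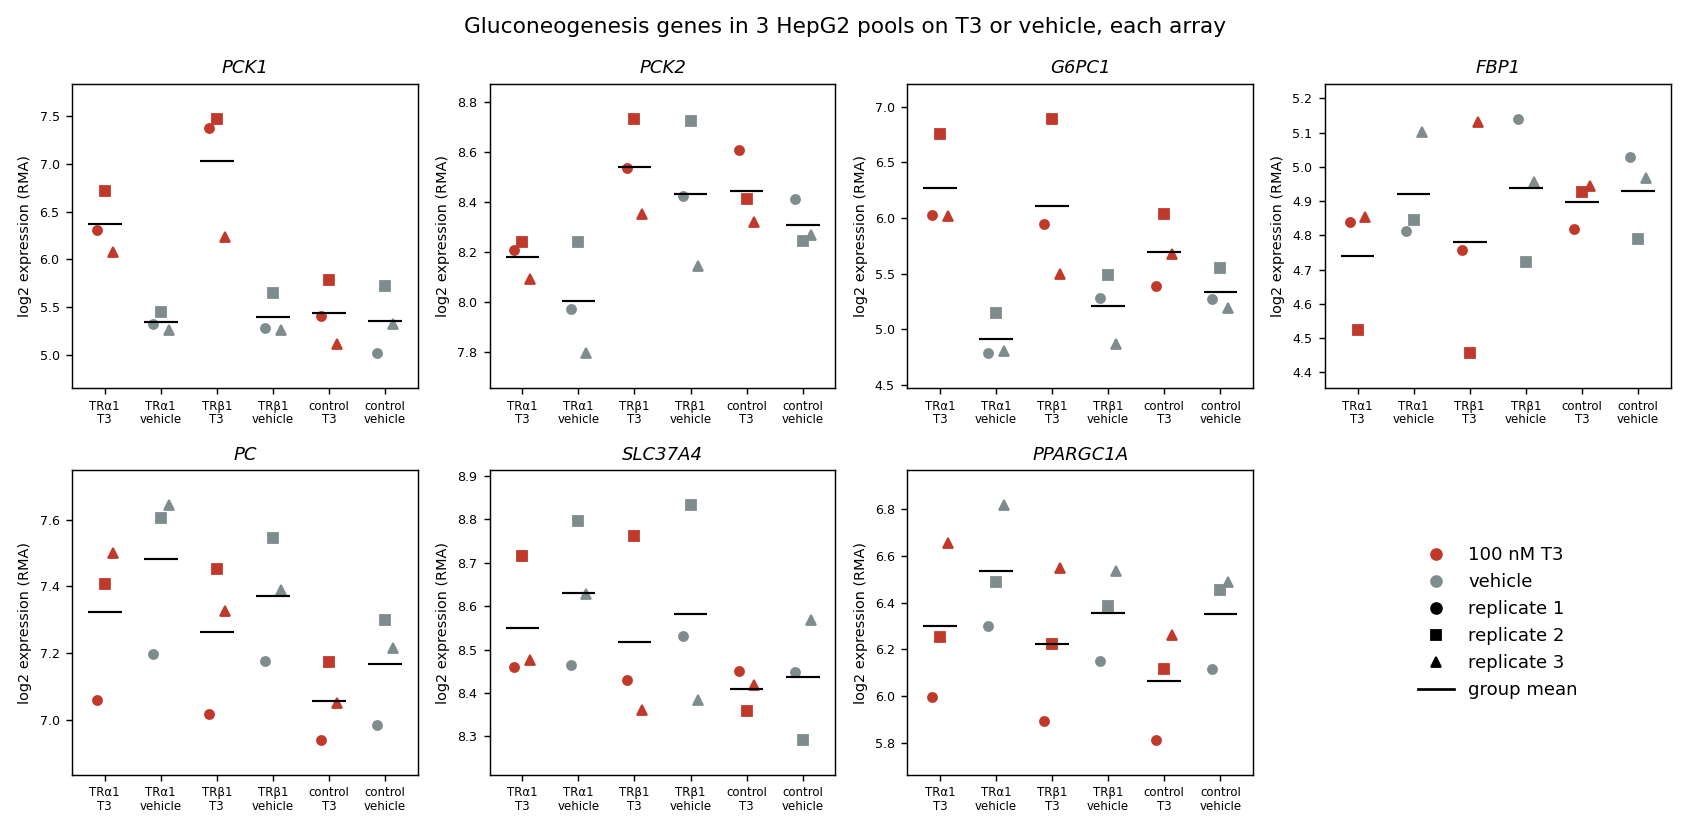
Log2 expression (vertical axis) of each of the 7 genes on every array, by pool and treatment (horizontal axis), with T3 in red, vehicle in grey, a marker shape for each replicate number and a bar for the group mean of 3 arrays. PCK1 and G6PC1 stand apart between T3 and vehicle in the TRα1 and TRβ1 pools, while the arrays of the other 5 genes overlap between T3 and vehicle in every pool. The vertical scales differ between panels.

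G6PC1 (feature 8007429, chr17:42900799-42914438), the catalytic subunit that releases free glucose, was the other gene to respond. RefSeq promoter windows (GRCh38.p14) were available for 6 of the 7 members, all but PCK1. The 250 bases before the start are shown for G6PC1, the responding gene with such a window, and for PCK2, a gene that did not pass, both on the plus strand and 5′ to 3′. Capitals mark TGACCT, which is AGGTCA (the half-site of many nuclear receptors) read from the other strand, and TATAAA (the TATA box).
G6PC1 chr17:42900549-42900798: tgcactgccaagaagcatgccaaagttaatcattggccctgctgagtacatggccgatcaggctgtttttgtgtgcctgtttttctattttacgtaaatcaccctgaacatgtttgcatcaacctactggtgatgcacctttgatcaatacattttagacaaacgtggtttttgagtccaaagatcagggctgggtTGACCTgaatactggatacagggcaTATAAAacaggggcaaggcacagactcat
PCK2 chr14:24094061-24094310: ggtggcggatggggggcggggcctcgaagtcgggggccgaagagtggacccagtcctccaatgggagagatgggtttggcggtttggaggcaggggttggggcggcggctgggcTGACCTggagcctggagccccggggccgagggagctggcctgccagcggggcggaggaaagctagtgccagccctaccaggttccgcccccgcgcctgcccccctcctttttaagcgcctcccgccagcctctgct
In G6PC1 the AGGTCA letters lay 54 to 49 bases before the start and TATAAA 29 to 24 bases before it. PCK2 held AGGTCA 136 to 131 bases before the start used for its window and no TATAAA. That start lies inside the gene coordinates given above for PCK2, and so do these letters. The window of G6PC1 instead ends just before its gene coordinates, so the 2 windows are not placed alike. Letters were searched on both strands, and 12.1% of 35116 RefSeq windows of this length held AGGTCA and 10.7% TATAAA, so a match is common and is only a description. The search also took in TGACG, the first part of the cAMP response element (21.2% of windows), and GTAAACA, a forkhead core (2.98%). TGACG occurred in a window of PC, 3 times, and of PPARGC1A, while a window of SLC37A4 held TATAAA and another window of PC held AGGTCA. None of the members' windows held GTAAACA, and FBP1 held none of the 4 motifs.

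In the TRα1 pool G6PC1 stood at 6.03, 6.75 and 6.02 on T3, against 4.79, 5.14 and 4.80 on vehicle. The lowest T3 array was above the highest vehicle array by a wide margin (2.64% of features were higher on T3 in this pool without overlap). In the TRβ1 pool it stood at 5.94, 6.89 and 5.50 on T3, against 5.28, 5.48 and 4.87 on vehicle, a separation of the groups by only a narrow step (2.4% of features were higher on T3 there without overlap). In the control pool the values were 5.39, 6.03 and 5.67 on T3, against 5.27, 5.55 and 5.19 on vehicle, and the groups overlapped. Replicate 2 was the highest array in every group.

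The response of G6PC1 was 1.35 ± 0.30 (SE; interval 0.73 to 1.98) in the TRα1 pool, 0.90 ± 0.30 (1.87-fold; 0.27 to 1.53) in the TRβ1 pool and 0.36 ± 0.30 (1.28-fold; -0.27 to 0.99) in the control pool. No single pool passed in limma without the block (adjusted p = 0.145, 1.0 and 1.0), while the mean of the pools did (adjusted p = 0.0296). With the replicate number as a block G6PC1 passed in the TRα1 pool (adjusted p = 5.6e-04) and the TRβ1 pool (adjusted p = 0.0216) and not in the control pool (adjusted p = 0.829). Of 18 fits that left out 1 array without the block, 1 called G6PC1 in the TRα1 pool (adjusted p = 0.0273 without replicate 2 of TRβ1 on T3). The call in the mean of the pools held in 9 of these 18, and the call in TRβ1 with the block in 14 of 18 (adjusted p up to 0.142). T3 was higher in all 9 same-numbered pairs, a pattern that 2.04% of the tested features showed. The pairs differed by 1.24, 1.61 and 1.22 in TRα1, by 0.66, 1.41 and 0.63 in TRβ1 and by 0.12, 0.48 and 0.48 in control.

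By group mean the order for G6PC1 was TRα1 on T3 (6.27 ± 0.42, SD, n = 3), TRβ1 on T3 (6.11 ± 0.71), control on T3 (5.70 ± 0.32), control on vehicle (5.34 ± 0.19), TRβ1 on vehicle (5.21 ± 0.32) and TRα1 on vehicle (4.91 ± 0.20). The arrays of all neighbours in this order overlapped. Without hormone the TRα1 pool was thus the lowest of the 3, and its 3 vehicle arrays lay below the 3 of the control pool, as in 3.09% of features.

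**Figure D2:**
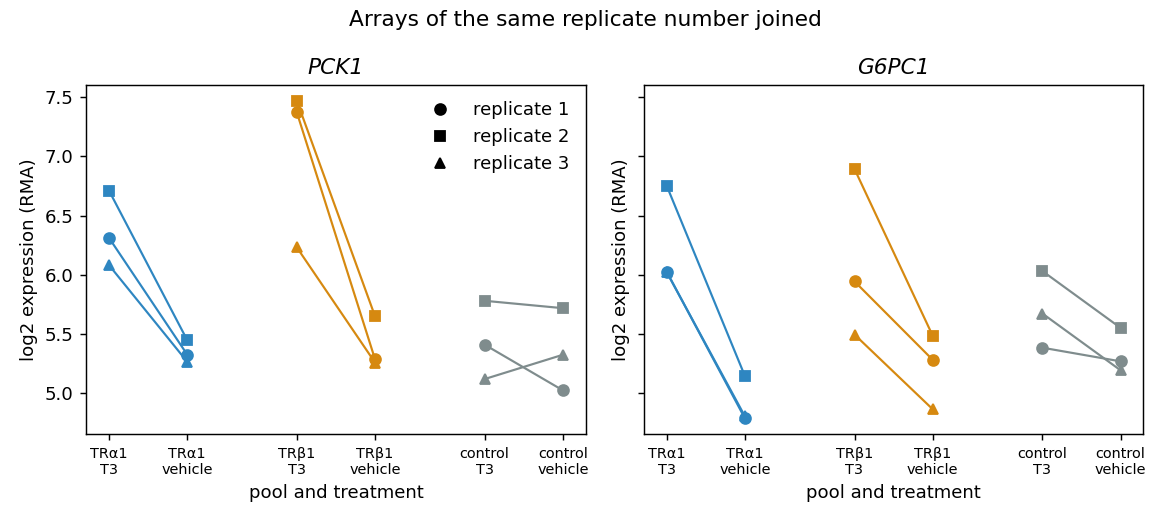
Log2 expression (vertical axis) of PCK1 and G6PC1 in each pool on T3 and on vehicle (horizontal axis), with lines that join arrays of the same replicate number and a marker shape for each number. The T3 end of the line is the higher one in all 6 pairs of the receptor pools for both genes, and in the control pool in 3 of 3 pairs for G6PC1 and 2 of 3 for PCK1.

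SLC37A4 (feature 7952132, chr11:119024112-119030877) supplies G6PC1 with its substrate, and its arrays overlapped between T3 and vehicle in every pool. It stood at 8.46, 8.71 and 8.48 on T3 against 8.46, 8.80 and 8.63 on vehicle in TRα1, at 8.43, 8.76 and 8.36 against 8.53, 8.83 and 8.38 in TRβ1, and at 8.45, 8.36 and 8.42 against 8.45, 8.29 and 8.57 in control. The mean response of -0.06 ± 0.08 had an interval of -0.23 to 0.11 and did not pass (adjusted p = 1.0).

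FBP1 (feature 8162502, chr9:94603133-94640263), which acts between the steps of PCK1 and G6PC1, did not pass either. Its levels were 4.84, 4.52 and 4.85 on T3 against 4.81, 4.84 and 5.10 on vehicle in TRα1, 4.76, 4.46 and 5.13 against 5.14, 4.72 and 4.96 in TRβ1, and 4.82, 4.93 and 4.95 against 5.03, 4.79 and 4.97 in control. The mean response was -0.12 ± 0.09 (interval -0.32 to 0.07; adjusted p = 1.0), and T3 was higher in 3 of 9 same-numbered pairs.

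PC (feature 7949719, chr11:66848420-66958383), the entry point for pyruvate, was slightly lower on T3 in all 9 same-numbered pairs, by between 0.04 and 0.20, a pattern seen in 1.8% of tested features. It stood at 7.06, 7.41 and 7.50 on T3 against 7.20, 7.61 and 7.64 on vehicle in TRα1, at 7.02, 7.45 and 7.32 against 7.18, 7.55 and 7.39 in TRβ1, and at 6.94, 7.17 and 7.05 against 6.98, 7.30 and 7.22 in control. The groups overlapped, and replicate 1 was the lowest array in all 6 groups. The mean response of -0.13 ± 0.09 did not pass without the block (adjusted p = 1.0) or with it (adjusted p = 0.262).

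PPARGC1A (feature 8099633, chr4:23792021-24472905), the coactivator, was lower on T3 in 8 of 9 same-numbered pairs. The share of features lower in 8 of 9 was not counted, and 1.8% were lower in all 9. It stood at 5.99, 6.25 and 6.66 on T3 against 6.30, 6.49 and 6.82 on vehicle in TRα1, at 5.89, 6.22 and 6.55 against 6.15, 6.38 and 6.54 in TRβ1, and at 5.81, 6.12 and 6.26 against 6.11, 6.45 and 6.49 in control. In every group replicate 1 was lowest and replicate 3 highest, and T3 and vehicle overlapped. The responses were -0.23, -0.14 and -0.29 (each ± 0.20) in TRα1, TRβ1 and control, and none passed. Their mean of -0.22 ± 0.12 did not pass without the block (adjusted p = 1.0) and fell past the threshold with it (SE 0.05, adjusted p = 0.0215). That call held in 9 of the 18 fits with the block that left out 1 array, and was lost without T3 replicates 1 or 2 of either receptor pool, T3 replicate 3 or vehicle replicate 1 of control, vehicle replicate 3 of TRα1, or vehicle replicates 1 or 2 of TRβ1.

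Counted over the 7 genes in limma without the block, 0 passed for T3 in the TRα1 pool, where 0.131% of all tested features did, although 2 members (PCK1 and G6PC1) and 523 features had an unadjusted p under 0.05. In the TRβ1 pool 1 member passed (PCK1, higher), against 0.073% of features. In the control pool 0 members passed, against 0.00973% of features, and 0 members and 417 features had an unadjusted p under 0.05. In the mean of the pools 2 members passed, both higher, against 0.423% of features. The median response of the 7 genes was -0.08 in TRα1, -0.06 in TRβ1, -0.03 in control and -0.06 in the mean of the pools, against -0.02, -0.01, -0.01 and -0.01 over all tested features. With the replicate block, 2 members passed in TRα1 (0.667% of features), 2 in TRβ1 (0.477%), 0 in control (0.0973%; 2 members, G6PC1 and PPARGC1A, and 1222 features at an unadjusted p under 0.05) and 3 in the mean of the pools (1.69%), of which PPARGC1A was lower. An unadjusted p under 0.05 in that mean was found with the block for 5 members, against 10.3% of features. These were PCK1, G6PC1 and PCK2, which were higher, and PC and PPARGC1A, which were lower. Without the block 2 members had one (3.82% of features).

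**Figure D3:**
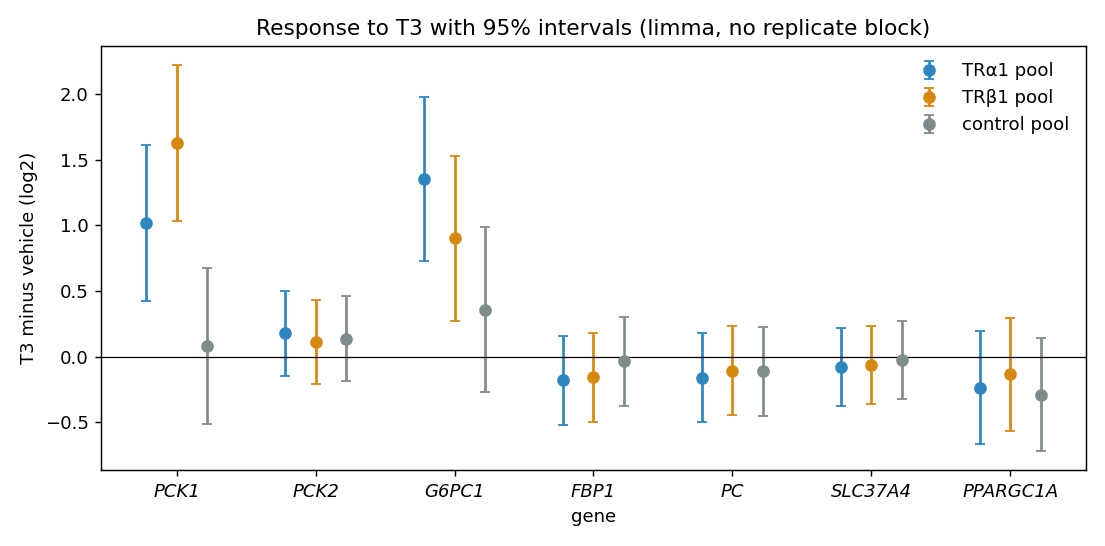
T3 minus vehicle on the log2 scale (vertical axis) for each gene (horizontal axis) in the TRα1, TRβ1 and control pools, with points for the estimate and bars for the 95% interval from limma without the replicate block (3 arrays per group). The intervals of PCK1 and G6PC1 lie above 0 in both receptor pools and cross 0 in the control pool, and those of the other 5 genes cross 0 in every pool.

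Whether the response differed between pools was tested directly. For PCK1 the response exceeded that of the control pool by 1.55 ± 0.40 (SE; interval 0.71 to 2.39) in TRβ1 and by 0.94 ± 0.40 (0.10 to 1.78) in TRα1. For G6PC1 the excess was 0.54 ± 0.42 (-0.34 to 1.43) in TRβ1 and 0.996 ± 0.42 (0.11 to 1.88) in TRα1. That of G6PC1 in TRβ1 was 0.15 without replicate 2 and 0.85 without replicate 3 of TRβ1 on T3. None of these 4 differences passed over all features (adjusted p = 1.0 without the block; with it 0.163 and 0.884 for PCK1 and 1.0 and 0.565 for G6PC1). With the block, that of PCK1 in TRβ1 passed in 1 of 18 fits that left out 1 array (adjusted p = 0.0013 without replicate 3 of TRβ1 on T3). Both comparisons use the same control arrays. In same-numbered sets the excess over control was 1.70, 1.76 and 1.18 for PCK1 and 0.55, 0.93 and 0.15 for G6PC1 in TRβ1, and 0.60, 1.2 and 1.02 for PCK1 and 1.12, 1.13 and 0.74 for G6PC1 in TRα1.

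Between the isoforms, the response of PCK1 in TRβ1 minus that in TRα1 was 0.60 ± 0.40 (interval -0.24 to 1.45), and for G6PC1 it was -0.45 ± 0.42 (-1.34 to 0.43). Neither passed with or without the block (adjusted p = 1.0), and both intervals, from the fit without the block, include 0. Without replicates 2 or 3 of TRβ1 on T3 these differences were 0.38 and 1.001 for PCK1 and -0.84 and -0.15 for G6PC1, and without replicate 2 of TRα1 on T3 that of G6PC1 was -0.21. For the other 5 genes the 15 differences of response lay between -0.15 and 0.15, with intervals that reached from -0.63 to 0.76. Over all features, 0% passed in each of the 3 comparisons of responses without the block, where 286, 275 and 223 features had an unadjusted p under 0.05 for TRα1 over control, TRβ1 over control and TRβ1 over TRα1. With the block 0.0292% passed for TRα1 over control and 0% for the others, and 0 of the 7 genes were among them. PCK1 and G6PC1 then had an unadjusted p under 0.05 in both comparisons with control, as had PCK1 between the isoforms. Of all features, 3.75% had one for TRα1 over control, 4.06% for TRβ1 over control and 3.01% for TRβ1 over TRα1.

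On vehicle the pools were compared to see whether added receptor went with other levels in the absence of hormone. PCK1 differed little, by -0.01 ± 0.28 in TRα1 minus control and 0.04 ± 0.28 in TRβ1 minus control. G6PC1 was at 4.91 ± 0.20 (SD, n = 3) in TRα1 against 5.34 ± 0.19 in control, a difference of -0.43 ± 0.30 with no overlap of arrays (3.09% of features were lower there without overlap), and at 5.21 ± 0.32 in TRβ1. PCK2 was at 8.0 ± 0.22 in TRα1 against 8.31 ± 0.09 in control (-0.31 ± 0.15), again without overlap, and was 0.43 ± 0.15 higher in TRβ1 than in TRα1. PC was at 7.48 ± 0.25 in TRα1 and 7.37 ± 0.19 in TRβ1, against 7.17 ± 0.16 in control.

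None of the 7 genes passed on vehicle without the block, where 0.307% of features did for TRα1 over control, 0.117% for TRβ1 over control and 0% for TRβ1 over TRα1. Unadjusted p-values under 0.05 were found for 0, 0 and 1 of the 7 (PCK2) and for 977, 722 and 593 features. With the block PC passed in TRα1 over control (0.32 ± 0.08, adjusted p = 0.0472), where 2.07% of features passed, and G6PC1 (adjusted p = 0.263) and PCK2 (adjusted p = 0.192) did not. PC lost that call in 16 of the 18 fits with the block that left out 1 array, all but those without replicate 1 of control on T3 or replicate 3 of TRα1 on T3. For TRβ1 over control and TRβ1 over TRα1, 0 of the 7 passed with the block, against 0.735% and 0.54% of features. An unadjusted p under 0.05 was found with the block for PC in the first (10.8% of features) and for PCK2 and PPARGC1A in the second (7.71%). In TRα1 over control PCK2, G6PC1, PC and PPARGC1A had one with the block (13.6% of features). FBP1, SLC37A4 and PPARGC1A differed between vehicle pools by at most 0.19 in size and did not pass.

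The arrays of PCK1 and G6PC1 went up and down together. After the mean of each replicate number was subtracted, Pearson's r between them was 0.79 over the 18 arrays, and it was 0.80 between PC and PPARGC1A, 0.62 between PC and SLC37A4, -0.62 between PCK1 and FBP1 and -0.64 between PCK2 and PPARGC1A. These describe arrays that share pools, hormone and repeats, and carry no test. Of all features with 1 gene, those most like PCK1 were GPCPD1 (r = 0.90), PRKAR1A (0.89), TSKU (0.87), SERGEF (0.86) and ADM (0.86). Genes named for this likeness were picked on the same arrays, so their responses are a description. GPCPD1, a glycerophosphocholine phosphodiesterase, rose by 0.74 in TRα1 (adjusted p = 0.0318) and 0.79 in TRβ1 (adjusted p = 0.0312), with 0.19 in control (adjusted p = 1.0). PRKAR1A, a regulatory subunit of cAMP-dependent protein kinase, had responses of 0.25, 0.42 and 0.11 in TRα1, TRβ1 and control, of which only that in TRβ1 passed and only with the block (adjusted p = 0.0181).

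Those most like G6PC1 were STOM (r = 0.94), TNS4 (0.93), MPV17L (0.93), SCNN1A (0.91) and CPEB4 (0.91). SCNN1A, which codes for the alpha subunit of the epithelial sodium channel, responded by 1.77, 1.30 and 0.84 in TRα1, TRβ1 and control, and the tensin TNS4 by 1.48, 0.98 and 0.73. All 5 genes had their largest response in TRα1, the next in TRβ1 and the smallest in control, the order that G6PC1 has. Picking genes by likeness to G6PC1 on these arrays favours that order, so it is a description. In TRα1, SCNN1A (adjusted p = 0.0035), TNS4 (adjusted p = 0.0037) and MPV17L (adjusted p = 0.0056) passed without the block. With the block SCNN1A (adjusted p = 0.0194) and TNS4 (adjusted p = 0.0396) passed in the control pool in limma. G6PC1, STOM, MPV17L and CPEB4 did not pass there.

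The remaining genes of the pathway were described from 5 lists chosen by function. Of the reversible enzymes shared with glycolysis (16 of 18 measured), the enzymes and isozymes of substrate entry (16 of 20) and the opposing enzymes of glycolysis and pyruvate oxidation (20 of 22), 0 passed for T3 in any pool or in the mean, with or without the block. An unadjusted p under 0.05 in the mean was found for 1, 2 and 3 genes of these lists without the block, where 3.82% of all tested features had one, and for 1, 3 and 6 with it (10.3% of features). The medians of the mean response were -0.01, -0.07 and 0.00 for these lists, against -0.01 over all tested features. The largest mean changes were those of ENO2, an enolase, at -0.18 ± 0.08, of GPD1, which links glycerol phosphate to the pathway, at -0.22 ± 0.08, and of PFKFB1, which sets the level of fructose 2,6-bisphosphate, at 0.26 ± 0.11. These SEs were from the fit without the block. None of these values passed in either fit (adjusted p = 0.314, 0.0584 and 0.0927 with the block, where the SEs were smaller).

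Among transcriptional regulators (38 of 41 measured), NR1D1, the circadian repressor REV-ERBα, rose by 0.52 ± 0.09 in TRα1 (adjusted p = 0.0330), 0.53 ± 0.09 in TRβ1 (adjusted p = 0.0423) and 0.44 ± 0.05 in the mean of the pools (adjusted p = 5.1e-04), and it was the only regulator to pass without the block. With the block 3 more rose in the mean of the pools, so that 4 of 38 passed against 1.69% of all features, and 1 of 38 against 0.423% without it. An unadjusted p under 0.05 was found for 7 of 38 without the block and 10 with it, against 3.82% and 10.3% of features. CEBPB, a liver-enriched bZIP factor, rose by 0.62 ± 0.10 (adjusted p = 0.0019) and by 0.79 ± 0.17 in TRα1 (adjusted p = 0.0421), MLXIPL, the glucose-responsive factor ChREBP, by 0.45 ± 0.07 (adjusted p = 0.0014), and CEBPA by 0.24 ± 0.05 (adjusted p = 0.0234). The other 34 did not pass: FOXO1, which insulin keeps out of the nucleus, had a mean response of 0.07 ± 0.06, CREB1, which cAMP activates, 0.03 ± 0.04 and its coactivator CRTC2 -0.01 ± 0.08 (SE with the block).

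Of the insulin, glucagon and cAMP signalling genes (22 of 25 measured), 0 passed without the block in limma, where 1 had an unadjusted p under 0.05 in the mean of the pools (3.82% of all features). With it, where 3 had one (10.3% of features) and 1.69% of features passed, PRKAR1A rose by 0.26 ± 0.04 in the mean of the pools (adjusted p = 0.0042) and by 0.42 ± 0.08 in TRβ1, and IGFBP1, a secreted IGF-binding protein whose gene insulin represses, fell by 0.32 on the log2 scale (SE 0.06, adjusted p = 0.0089) and by 0.50 in TRβ1 (SE 0.10, adjusted p = 0.0454). The medians of the mean response of the regulators and of the signalling genes were -0.01 and -0.03.

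**Figure D4:**
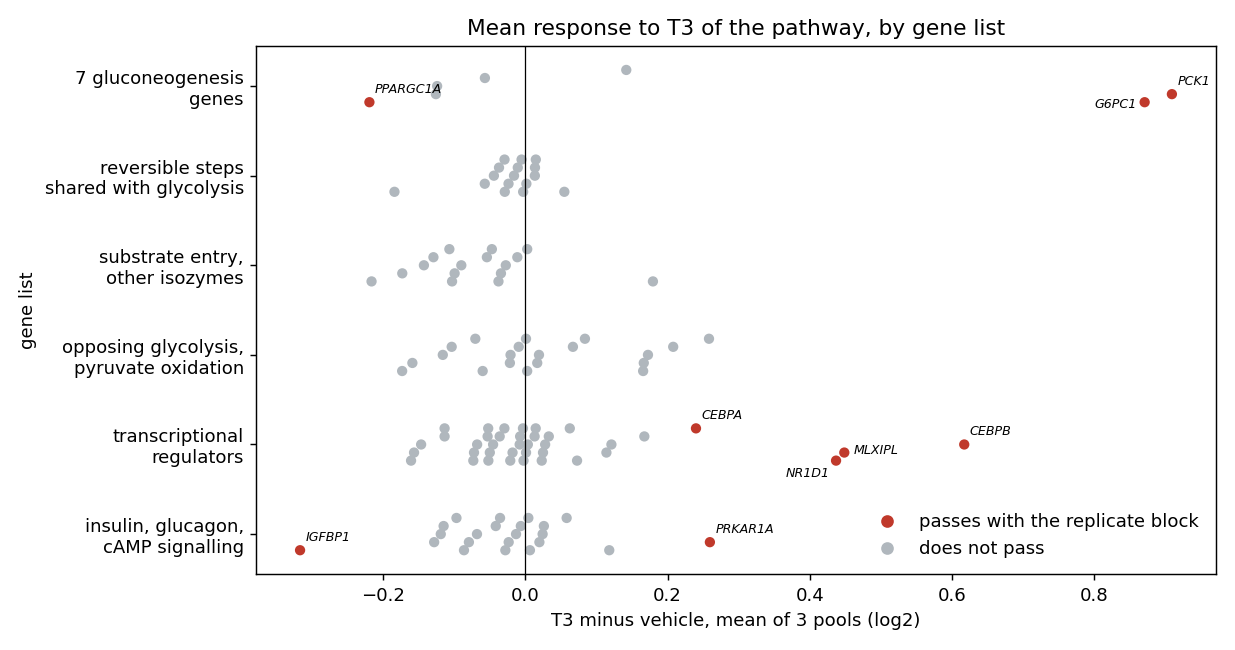
T3 minus vehicle averaged over the 3 pools on the log2 scale (horizontal axis) for every measured gene of the 7 members and of the 5 pathway lists (vertical axis, with genes spread out to be visible), in red where limma with the replicate block passed. PCK1 at 0.91 and G6PC1 at 0.87 lie above every other gene shown, the nearest being CEBPB at 0.62.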

How the data were processed

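RNA of 18 HepG2 samples was measured on single-colour Affymetrix arrays from 200 ng of total RNA each. The deposited values are log2 expression per feature after RMA, for which the submitters' processing notes name R 2.7.1 as the authors' software. RMA makes the arrays' distributions alike, so a change common to most genes would not show. Gene symbols came from GEO's platform annotation. The authors' genome build is not given in the sources used here, and gene coordinates and promoter windows are RefSeq's in GRCh38.p14. Arrays have no read depth, and 3 per group limit the precision.

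A model of the 6 group means was fitted to 20546 features with limma 3.58.1 in R 4.3.3, with two-sided Benjamini-Hochberg adjusted p-values, a threshold of 0.05 and 95% intervals, and was tested on simulated data. The other 11775 features, which have no symbol, entered only an alternative. The median SE was 0.157. The numbers pair the arrays: after group means were subtracted, all 45 same-numbered pairs correlated positively, with a lowest r of 0.259. Only arrays of different groups were paired. Those with different numbers had a median r of -0.483 and reached 0.455, so the ranges overlapped. Each of the 18 arrays still correlated best, among arrays of other groups, with a same-numbered one. Subtracting group means makes the values within each group cancel out. This lowers r between different numbers once equal numbers correlate, so the size of that median is partly made by this step. The model without the number as a block is the one reported, and the block (median SE 0.107) is an alternative, as are all features of the table, dim features left out, array weights, median centring, each pool alone and leaving out arrays. The repeats are described as independent, but nothing says how their cultures were separated, so p-values measure the spread between these samples.

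Named were the 7 genes, THRA and THRB, up to 6 passing genes per list, otherwise the largest mean change, and the 5 genes most correlated with PCK1 and with G6PC1. FOXO1, CREB1, CRTC2, PTPRC, LYZ and CD68 were added after their values were seen. Genes and lists were chosen with earlier results of these data known. Listed genes without a feature of their own were not analysed here.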

Additional observations from a re-analysis of the deposited data

Results flagged for a closer look

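In same-numbered pairs, the T3 response of PCK1 minus that of G6PC1 was 1.42, 0.41 and 0.34 in the TRβ1 pool (mean 0.73 ± 0.61, SD, n = 3), against -0.25, -0.34 and -0.40 in the TRα1 pool (mean -0.33 ± 0.07), so that PCK1 responded more than G6PC1 in each TRβ1 pair and less in each TRα1 pair. The control pool gave 0.27, -0.42 and -0.68. The difference between the receptor pools was 1.06 on the log2 scale and lay between 0.75 and 1.23 when arrays were left out. This comparison was chosen after the values were seen, 3 pairs against 3 cannot pass an exact test at 0.05, and the difference between the pools passed for neither gene, so these values are a description.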

How the results depend on the processing

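With the replicate block, G6PC1 at 1.35 in TRα1 and 0.90 in TRβ1, PCK1 at 1.02 in TRα1, PC at 0.32 in TRα1 over control on vehicle and PPARGC1A at -0.22 in the mean of the pools passed as well. The members that passed became 2 in each receptor pool and 1 on vehicle, and the block changed no other call of a member. The features that passed became 137, 98 and 20 for T3 in TRα1, TRβ1 and control and 347 in their mean (27, 15, 2 and 87 without it), 425, 151 and 111 on vehicle for TRα1 over control, TRβ1 over control and TRβ1 over TRα1 (63, 24 and 0), and 6 for the response of TRα1 over control (0).

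The call of PCK1 in TRβ1 was lost over all features of the table (1.63, adjusted p = 0.0802), with array weights (1.41, adjusted p = 0.106) and with the arrays of that pool alone (1.63, adjusted p = 0.791), each leaving 0 members. G6PC1 in the mean of the pools was lost over all features (0.87, adjusted p = 0.0575), which left 1 member. Leaving out dim features gave 0 members in TRβ1 and in the mean, since PCK1, G6PC1 and FBP1 are then not tested. Array weights turned FBP1 in control to 0.0057 and PCK1 in TRβ1 over control on vehicle to -0.0057, and the causes were not tested. Feature counts over 1.5 times apart were 41, 5, 142, 95, 39, 15 and 1 with array weights (TRα1, control, mean, the 3 vehicle comparisons, TRα1 over control response), 1 with median centring (that response), 6, 0 and 0 with each pool alone (TRα1, TRβ1, control), 8 over all features (TRβ1), and 36 and 15 without dim features (TRα1 and TRβ1 over control on vehicle).

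Without the block, leaving out 1 array in turn kept PCK1 in the mean of the pools past the threshold in 18 of 18 fits, G6PC1 in 9 of 18 and PCK1 in TRβ1 in 4 of 18, with adjusted p from 0.0013 (without replicate 3 of TRβ1 on T3) to 0.266. The 3 other fits that kept PCK1 in TRβ1 left out T3 replicate 3 of TRα1 or vehicle replicates 1 or 2 of control. G6PC1 in the mean was lost without T3 replicates 2 or 3 of control, T3 replicate 2 of TRα1, or vehicle replicates 1 or 3 of any pool (adjusted p up to 0.0837). With the block, PCK1 in TRβ1 and G6PC1 in TRα1 kept their calls in 18 of 18. PCK1 in TRα1 then lost its call without any array of that pool but vehicle replicate 3 (adjusted p up to 0.114), and G6PC1 in TRβ1 without T3 replicates 1 or 2 or vehicle replicates 2 or 3 (adjusted p up to 0.142). Where all arrays of a number were left out, PCK1 in the mean passed in 1 of 3 fits and G6PC1 in 0 of 3. Over all 39 fits that left arrays out, PCK1 ranged from 0.85 to 1.17 in TRα1, 1.40 to 2.02 in TRβ1, -0.10 to 0.26 in control, 0.79 to 1.10 in the mean, 1.32 to 1.94 for the response of TRβ1 over control and 0.36 to 1.001 for that of TRβ1 over TRα1, and on vehicle from -0.19 to 0.17, -0.14 to 0.22 and -0.075 to 0.17. G6PC1 ranged from 1.11 to 1.48 in TRα1, 0.51 to 1.21 in TRβ1, 0.19 to 0.51 in control, 0.72 to 0.97 in the mean, 0.15 to 0.85 for the response of TRβ1 over control, -0.84 to -0.15 for that of TRβ1 over TRα1 and -0.27 to 0.045 for TRβ1 over control on vehicle. Other members that changed sign were FBP1 in control (-0.15 to 0.056) and TRβ1 (-0.33 to 0.0043), PC in TRβ1 (-0.20 to 0.018), PCK2 in TRβ1 (-0.032 to 0.26) and in TRβ1 over control on vehicle (-0.056 to 0.26), PPARGC1A in TRβ1 (-0.30 to 0.029), and SLC37A4 in control (-0.18 to 0.081), TRα1 (-0.16 to 0.0039) and TRβ1 (-0.19 to 0.060). The members that passed numbered 0 to 3 in the mean, 0 to 2 in each receptor pool, 0 to 1 for the response of TRβ1 over control and 0 to 1 for TRα1 over control on vehicle. Other features of a member could not be tried, since each has 1.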

Other observations

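PCK1 and G6PC1 also varied between repeats in a like order. Replicate 2 was the highest array in 6 of 6 groups for both genes, which 3.01% of tested features showed: the mean of the 6 arrays numbered 1, 2 and 3 was 5.79, 6.13 and 5.55 for PCK1 and 5.45, 5.98 and 5.34 for G6PC1. PC and PPARGC1A had replicate 1 lowest in 6 of 6 groups, as had 17% of features, with means of 7.06, 7.41 and 7.35 for PC and 6.04, 6.32 and 6.55 for PPARGC1A.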
